A study of Homo sapiens with 8 samples.

Results

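The genes of elastic fibres and their microfibrils were followed in IMR90 cells after exposure to medium from cells entering oncogene-induced senescence. IMR90 is a widely used line of normal primary fibroblasts from human embryo lung. The 10 members are named genes, FBN1, FBN2, ELN, FBLN1, FBLN2, FBLN5, EFEMP1, EFEMP2, MFAP4 and MFAP5, and each matched 1 symbol of the 27696 genes in the count table. The donor cells were IMR90-ER:RAS fibroblasts, which carry a RAS oncogene fused to the estrogen receptor and become senescent when 4-OHT (4-hydroxytamoxifen) switches it on. Their medium was taken at day 0, 4, 7 or 10 of 4-OHT, and the IMR90 recipients, which had no ER:RAS, spent 3 days in it before poly(A)+ RNA was sequenced. The 4 groups take their names from that day, D0 (the control), D4, D7 and D10, with 1 library per group in each of 2 independent experiments and so 8 libraries. Replicate numbers 1 and 2 of the labels were taken as experiments 1 and 2. All recipients are 1 cell line, so the spread covers repeat experiments and not different people.

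Elastic fibres have a core of cross-linked elastin laid on a scaffold of microfibrils, whose main proteins are the fibrillins. Some fibulins, a family that includes the EFEMP proteins, bind both tropoelastin and fibrillin and help to load one onto the other. The microfibril-associated proteins MFAP4 and MFAP5 bind along the same scaffold. In lung these fibres give elastic recoil, and microfibrils also hold latent TGF-β in the matrix through the LTBP proteins.

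Libraries held between 11708193 and 13395912 counts. Fibroblast markers were abundant in all of them, whereas the epithelial, endothelial, haematopoietic and adipocyte markers summed to at most 2.53, 3.90, 1.03 and 0.228 CPM (counts scaled by edgeR to a common library size). The count table held 3 of 4 epithelial, 4 of 4 endothelial and 3 of 4 haematopoietic markers. Of the 2 adipocyte markers it held 1, PLIN1. The 9 fibroblast markers summed to 46796 CPM in D0 medium of experiment 1, then to 34909, 32400 and 34653 CPM with the later media in order of day. In experiment 2 they summed to 33089 CPM, then to 31595, 30284 and 10060 CPM. The fibroblast sum was thus below its own D0 library in every later one. At D4, D7 and D10, 5, 5 and 8 of the 9 markers were lower in both experiments, as were 28.9%, 31% and 32.3% of all tested genes. COL1A2, COL3A1, PDGFRB, LUM and DCN were lower in both experiments on each day. The 3 smooth muscle markers summed to 748, 608, 444 and 216 CPM in experiment 1, in order of day from D0, and to 600.3, 425, 241 and 164 CPM in experiment 2. Nearly all of this was ACTG2, a smooth muscle actin, since MYH11 and DES stayed at or under 1.24 and 0.0792 CPM. Both sums were lower in every later library than in their own D0 library, as were most members below. From D4 to D10 ACTG2 changed by -1.49 and -1.37 on the log2 scale in experiments 1 and 2. Over the same step FBN2 changed by 0.50 and -0.54, and MFAP4 by -0.15 and -0.50. Fibroblast markers took different directions over it, for example COL3A1 by 0.69 and -1.82, DCN by -0.50 and -1.97 and LUM by 0.08 and 0.41. The part of these markers in the members' values was not tested. The lowest fibroblast sum belonged to the library of D10 in experiment 2, which stood apart with 1295 CPM of COL1A1 against at least 8694 CPM in the other 7 libraries. Member values at D10 that a call or a direction rests on are also given without it. In bulk RNA, fewer cells of one kind and less RNA per cell cannot be told apart.

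Of the 10 members, 8 had enough counts to be tested. At D4, D7 and D10, 6 of these 8 had both libraries below both D0 libraries, namely FBN1, FBN2, FBLN1, FBLN5, EFEMP1 and MFAP4, while 12.6%, 15.2% and 16% of all tested genes did so. The 3 comparisons share the D0 libraries. In the D10 library of experiment 1 alone, 7 of the 8 members lay below both D0 libraries, as did 29.5% of all genes. Against their own D0 library, 7, 7 and 8 of the 8 members were lower in both experiments on the 3 days. So were 28.9%, 31% and 32.3% of all tested genes. The median log2 fold change of the 8 members was -0.63 at D4, -0.51 at D7 and -0.77 at D10, against 0.01, -0.00041 and 0.0037 over all 13798 genes tested. The members' D10 median was -0.51 without D10 of experiment 2.

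None of these differences passed edgeR's quasi-likelihood test without a term for the experiment, with a threshold of 0.05 on the p-value adjusted over all tested genes. In this fit 0% of all genes passed at D4, 0% at D7 and 0.29% at D10, and 0 members passed on any day. At an unadjusted p under 0.05 the same fit held 3, 3 and 5 members, and 2.96%, 4.34% and 7.94% of all genes. With the experiment as a term, called the replicate block, 1 member fell at D4, 3 at D7 and 3 at D10, while 0.188%, 0.739% and 2.45% of all genes fell. DESeq2 called 1, 2 and 2 members, all lower, while it called 0.182%, 0.43% and 1.13% of its tested genes lower. Without the D10 library of experiment 2 the fit with the block called 4, 4 and 3 members, all lower, while it called 1.89%, 2.84% and 2.58% of all genes lower. The fit without the block then called 0 members on each day, and 0%, 0% and 0.0776% of all genes. Members below are therefore said to have fallen only together with the test that called them.

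**Figure D1:**
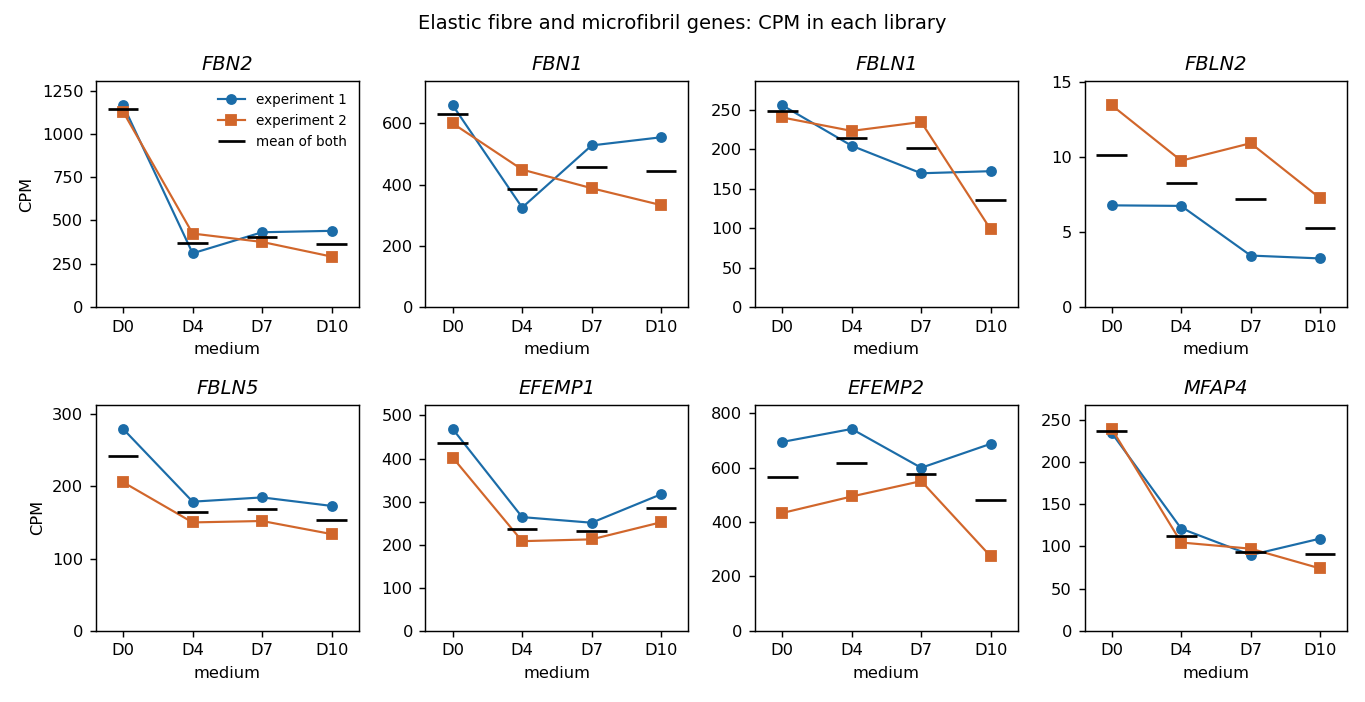
CPM of the 8 tested members (vertical axis, from 0, own scale per gene) in each library, by the day of the medium (horizontal axis). Circles are experiment 1, squares experiment 2 and black bars the mean of the 2 libraries. FBN2 stood at 1165 and 1127 CPM in D0 medium and between 292 and 440.2 CPM in every later library.

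The fibrillins are the rod-like proteins from which microfibrils are built. FBN2 (ENSG00000138829.11, chr5:128257909-128659185, minus strand, GRCh38) encodes fibrillin-2, best known from developing tissue. FBN1 (ENSG00000166147.13, chr15:48408306-48645849, minus strand) encodes fibrillin-1, the main fibrillin of adult microfibrils and the gene altered in Marfan syndrome. The 2 genes are set apart by sequence, and no stretch of 50 bases in the exons of one occurred in the other. Their start regions are shown because the pair is compared throughout. Each window runs from 250 bases before to 50 bases after a RefSeq transcript start (GRCh38.p14), and is written 5′ to 3′ on the gene's strand, chr5:128538196-128538495 for FBN2 and chr15:48644921-48645220 for FBN1, with motif matches in capitals.

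FBN2: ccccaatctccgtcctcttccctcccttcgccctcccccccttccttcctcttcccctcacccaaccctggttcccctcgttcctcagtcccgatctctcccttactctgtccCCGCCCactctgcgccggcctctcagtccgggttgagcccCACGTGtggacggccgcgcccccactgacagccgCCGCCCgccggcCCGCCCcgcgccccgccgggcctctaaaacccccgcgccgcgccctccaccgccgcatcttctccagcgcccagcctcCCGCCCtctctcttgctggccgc

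FBN1: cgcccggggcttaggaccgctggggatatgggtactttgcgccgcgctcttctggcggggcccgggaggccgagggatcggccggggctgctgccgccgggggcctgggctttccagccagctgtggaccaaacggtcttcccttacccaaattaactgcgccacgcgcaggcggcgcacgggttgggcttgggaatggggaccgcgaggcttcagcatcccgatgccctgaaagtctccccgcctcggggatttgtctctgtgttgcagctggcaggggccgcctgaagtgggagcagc

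The FBN2 window held 4 matches of the GC box GGGCGG and 1 match of the E-box CACGTG on either strand, and the FBN1 window held none of either. Neither window held a CAGA box, searched as CAGACA, the element that SMAD proteins bind. Neither held an AP-1 site, searched as TGACTCA, or a TATA box, searched as TATAAA, all on both strands. Of 35116 RefSeq windows of the same length, 45.0% held the GC box, 7.26% the E-box, 16.9% the CAGA box, 4.95% the AP-1 site and 11.5% the TATA box. The windows were 72.7% and 68.3% G and C, above the median of 58.7% over all windows. A match is a match of letters only.

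FBN2 was the member with the largest difference. Its level was 1165 and 1127 CPM in D0 medium in experiments 1 and 2. In D4 medium it was 310.5 and 425 CPM, in D7 medium 432 and 376 CPM, and in D10 medium 440.2 and 292 CPM. Every later library lay below both D0 libraries, and the later groups overlapped each other. Between 3696 and 15489 counts stood behind each of these values.

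The log2 fold change of FBN2 was -1.64 (SE 0.30) at D4, -1.50 (SE 0.30) at D7 and -1.65 (SE 0.30) at D10. Within experiments it was -1.91 and -1.41 with D4 medium, -1.43 and -1.58 with D7 medium, and -1.40 and -1.95 with D10 medium, so that D10 recipients kept 0.378 and 0.259 of the level of their own D0 library. FBN2 fell at D4, D7 and D10 in the fit with the replicate block (edgeR adjusted p 0.0449, 0.0298 and 0.00701) and with DESeq2 (adjusted p 0.00046, 0.00075 and 2.5e-05). Without the block, edgeR gave adjusted p-values of 0.757, 0.307 and 0.0779. With 1 library at a time left out of the blocked fit, FBN2 was called in 2 of 8 fits at D4, 4 of 8 at D7 and 7 of 8 at D10. The D4 call was lost without any library of D0, D4 or D7, and the D7 call without either library of D0 or D7. The exception at D10 was the fit without D0 of experiment 2 (edgeR adjusted p 0.0742), and without D10 of experiment 2 the blocked value was -1.35 (edgeR adjusted p 0.00197).

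In D4 medium both FBN2 values already lay within the range of the D7 and D10 values. From D4 to D10 the log2 fold change was -0.0065, with a 95% interval from -0.68 to 0.67 and an edgeR adjusted p of 0.9995. The experiments moved in opposite directions over this interval, by 0.50 and -0.54. Over the mean of D4, D7 and D10 against D0 the log2 fold change was -1.60 (edgeR adjusted p 0.0641 without and 0.00329 with the block). This comparison was set because FBN2 was already known from these data to be low from D4 on. Its p-values for FBN2 are therefore not independent support. In that comparison 0 members were called without the block, where 0.109% of all genes were, and 4 fell with it, FBN2, FBLN5, EFEMP1 and MFAP4, where 1.81% of all genes fell. From D4 to D10 edgeR called 0 members with or without the block, against 2.55% and 0.00725% of all genes.

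FBN1 had a smaller difference with a wide spread. Its level was 659 and 599.8 CPM in D0 medium, 325 and 449 CPM in D4, 528 and 388 CPM in D7, and 554 and 333 CPM in D10. All 6 later libraries lay below both D0 libraries. In experiment 1 the lowest value was in D4 medium, and in experiment 2 in D10 medium. The log2 fold changes of FBN1 were -0.70, -0.46 and -0.50 at D4, D7 and D10, each with an SE of 0.33. None passed, with edgeR adjusted p-values of 1, 1 and 0.938 without the block and 0.540, 0.629 and 0.347 with it. The 95% interval at D10 ran from -1.26 to 0.25. Without D10 of experiment 2 the D10 value was -0.18, and without D10 of experiment 1 it was -0.90. In the blocked fits that left out D10 of experiment 1, FBN1 was called at D4 and D10 (edgeR adjusted p 0.0467 and 0.0213).

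**Figure D2:**
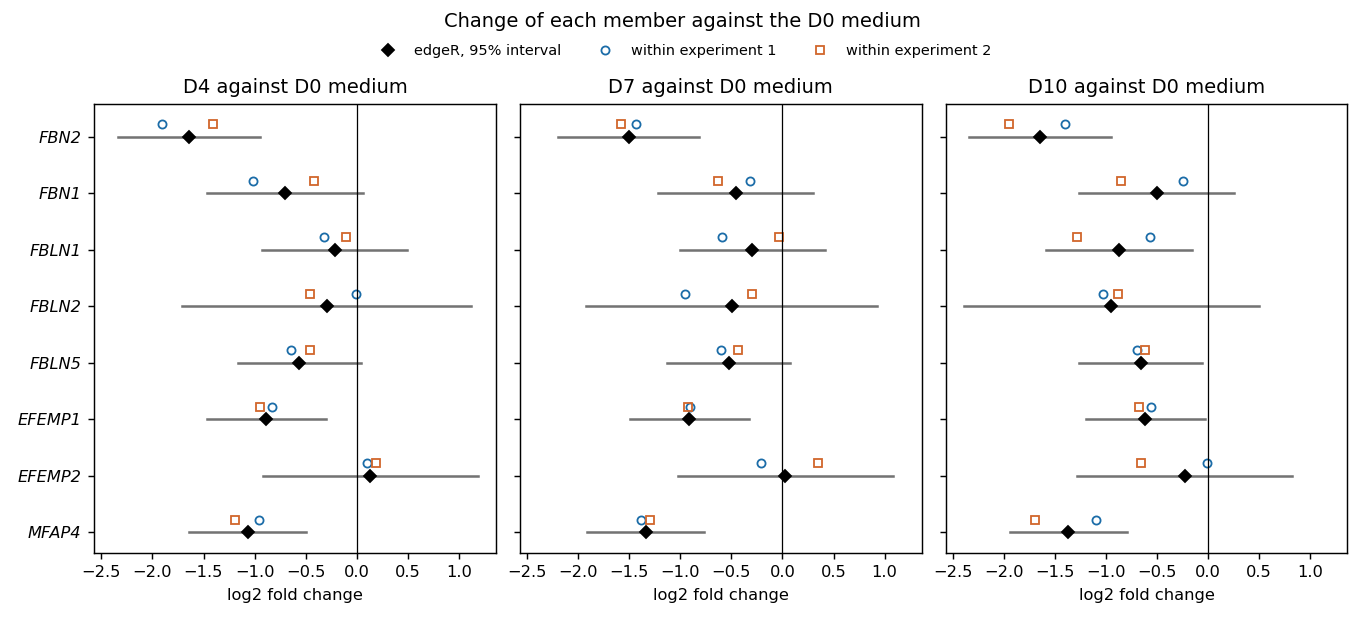
Log2 fold change against D0 medium (horizontal axis) of each tested member at D4, D7 and D10. Diamonds with lines are edgeR's estimates without a block and their 95% intervals, and open circles and squares the changes within experiments 1 and 2. The intervals of FBN2, MFAP4 and EFEMP1 lie below 0 on all 3 days and those of FBN1 include it. They are not adjusted for the number of genes tested, and in this fit no member passed the adjusted threshold on any day.

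Dividing CPM by the length of the merged exons allowed levels to be set between genes. FBN2 had 88.3 and 85.4 CPM per kb in D0 medium against 41.0 and 37.4 CPM per kb for FBN1. In D10 medium FBN2 had 33.4 and 22.1 CPM per kb, and FBN1 34.5 and 20.7 CPM per kb. The ratio of FBN2 to FBN1 per length was 2.15 and 2.29 in D0 medium, 1.16 and 1.15 in D4, 0.996 and 1.18 in D7, and 0.966 and 1.07 in D10. Per length, both D0 libraries thus had over 2 parts of FBN2 to 1 of FBN1, and the 6 later libraries had near equal parts. Merged exons pool all annotated transcripts of a gene, and the lengths of the transcripts expressed here were not measured. Without length, the log2 ratio was 0.82 and 0.91 in D0 medium and between -0.33 and -0.05 later. As a share of both fibrillins per length, FBN2 made up 68.3% and 69.6% in D0 medium and between 49.1% and 54.1% in every later library.

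On the log2 scale the ratio of FBN2 to FBN1 was lower by 0.89 and 0.99 with D4 medium, by 1.11 and 0.96 with D7 medium and by 1.16 and 1.10 with D10 medium within experiments 1 and 2. The difference between D10 and D0 was -1.13, with an exact two-sided permutation p of 0.333, the smallest that 2 libraries against 2 can give. Against the mean of all later media the difference was -1.03, with an exact two-sided permutation p of 0.0714, again the smallest possible, here over 28 splits. The low level of FBN2 in the later media was known when this comparison was set. Keeping the experiments together, the exact permutation p-values were 0.5 and 0.125, the smallest this design allows. With 1 library left out in turn the differences ran from -1.20 to -1.06 and from -1.08 to -0.99.

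**Figure D3:**
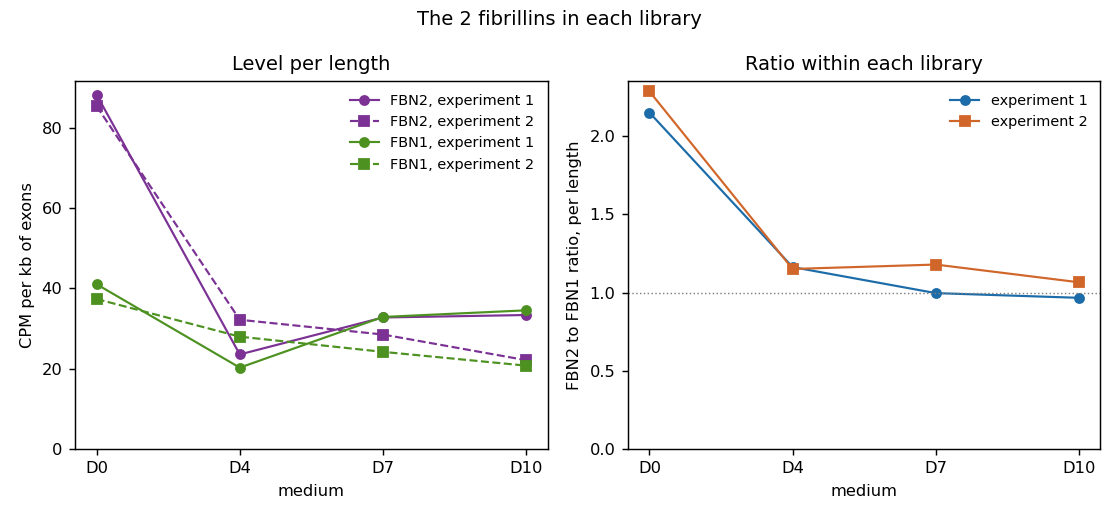
Left, CPM per kb of exons (vertical axis) of FBN2 and FBN1 in each library by the day of the medium. Right, the ratio of FBN2 to FBN1 per length in the same libraries, with a dotted line at 1. The ratio was 2.15 and 2.29 in D0 medium and between 0.966 and 1.18 later.

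ELN (ENSG00000049540.16, chr7:74027789-74069907, plus strand) encodes tropoelastin, the soluble precursor of elastin. It had 1 and 5 counts in D0 medium, 1 and 0 in D4, 0 and 1 in D7, and 0 in both D10 libraries. A count of 0 allows up to 3 counts, or 0.224 to 0.256 CPM depending on the library, and only D0 of experiment 2 exceeded that limit. ELN was therefore at or near the detection limit in all groups, and no difference was detectable at this depth. The recipients had microfibril RNA with next to no tropoelastin RNA.

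The cross-linking and assembly genes of elastin were nevertheless present. All 13 genes of this list, fixed with earlier results of these data known, were tested, and 0 were called at D4, D7 or D10 by edgeR with or without the block. Since edgeR called 0%, 0% and 0.29% of all genes without the block and 0.275%, 1.25% and 4.99% with it, a count of 0 in a list of this size lies near the share of all genes. Their median log2 fold change was -0.0040, 0.07 and 0.0071 on the 3 days, and 0.25 at D10 without D10 of experiment 2. At D10 the highest value was 0.50 for FKBP10, a collagen and tropoelastin chaperone, and the lowest -0.31 for LOXL1, a lysyl oxidase that cross-links elastin, and neither passed (edgeR adjusted p 0.921 and 0.998).

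The short fibulin FBLN5 (ENSG00000140092.14, chr14:91869412-91947987, minus strand) binds tropoelastin and integrins and tethers elastin to cells. Its level was 279 and 206 CPM in D0 medium, 179 and 150.01 CPM in D4, 185 and 152 CPM in D7, and 173 and 134 CPM in D10. Experiment 1 was higher than experiment 2 in every group, and both later series lay below both D0 values. The log2 fold change of FBLN5 was -0.56, -0.53 and -0.66 at D4, D7 and D10. Of the 3 days, FBLN5 fell at D10 in the fit with the replicate block only (edgeR adjusted p 0.0321, against 0.535 without the block and 0.501 with DESeq2). That call held in 4 of 8 blocked fits with 1 library left out. It was lost without D0 of experiment 1 or 2 (edgeR adjusted p 0.363 and 0.309) and without D7 of experiment 1 or 2 (edgeR adjusted p 0.0676 and 0.0761). Without D10 of experiment 2 the blocked value was -0.64 (edgeR adjusted p 0.0444).

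EFEMP1 (ENSG00000115380.19, chr2:55865967-55924139, minus strand) encodes fibulin-3, a fibulin of basement membranes and elastic tissue. It was at 469 and 402 CPM in D0 medium, 264 and 208 CPM in D4, 251 and 212 CPM in D7, and 317 and 252 CPM in D10. The D10 values lay between those of D0 and D7 in both experiments. The log2 fold change was -0.88, -0.91 and -0.61 on the 3 days, and the change from D4 to D10 was 0.27 with a 95% interval from -0.31 to 0.85. EFEMP1 fell at D7 with the block (edgeR adjusted p 0.0298, against 0.607 without), and it missed the threshold with the block at D4 and D10 (edgeR adjusted p 0.0575 and 0.0508). The blocked D10 value was -0.59 without D10 of experiment 2 (edgeR adjusted p 0.0697). The D7 call held in 2 of 8 blocked fits with 1 library left out, those without a D10 library.

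EFEMP2 (ENSG00000172638.12, chr11:65866441-65873592, minus strand) encodes fibulin-4, which brings lysyl oxidase to tropoelastin. It had no direction of its own. Its level was 694 and 433 CPM in D0 medium, 742 and 494 CPM in D4, 599 and 550.5 CPM in D7, and 688 and 274 CPM in D10. Experiment 1 was the higher in each group, and each later group overlapped the D0 values. The log2 fold changes were 0.13, 0.03 and -0.23, each with an SE of 0.46, and each changed sign when some single libraries were left out. No fit of all 8 libraries called EFEMP2, with edgeR adjusted p-values of 1, 1 and 0.998. With the block and 1 library left out in turn, its D10 values ran from -0.75 to 0.09.

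FBLN1 (ENSG00000077942.18, chr22:45502238-45601135, plus strand) encodes fibulin-1, found in elastic fibres and bound to fibronectin. It was at 256 and 240.3 CPM in D0 medium, 204 and 223 CPM in D4, 169.6 and 235 CPM in D7, and 172 and 98.4 CPM in D10. The lowest value was that of the D10 library of experiment 2, which stood apart in COL1A1. The log2 fold change was -0.21, -0.30 and -0.87 at D4, D7 and D10, and the D10 value was not called (edgeR adjusted p 0.435, and 0.112 with the block). Without that library it was -0.53. With the block and 1 library left out in turn, the D10 values of FBLN1 ran from -1.40 to -0.45.

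FBLN2 (ENSG00000163520.13, chr3:13549131-13638422, plus strand) encodes fibulin-2, which binds fibrillin-1 and tropoelastin. It was by far the scarcest of the tested members, with 6.79 and 13.5 CPM in D0 medium, 6.75 and 9.77 CPM in D4, 3.44 and 10.9 CPM in D7, and 3.25 and 7.26 CPM in D10. These values rest on 41 to 185 counts, and the experiments differed more than the groups. The log2 fold change of FBLN2 was -0.30, -0.50 and -0.95, with SEs of 0.61, 0.62 and 0.62, and none passed. With the block the D10 values ran from -1.04 to -0.89 when 1 library was left out. The fit without the block and without D10 of experiment 2 gave -1.64 at D10 (edgeR adjusted p 0.968), but that sets D10 of experiment 1 against the D0 libraries of both experiments.

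MFAP4 (ENSG00000166482.11, chr17:19383442-19387240, minus strand) encodes a fibrinogen-related protein that binds fibrillin and tropoelastin and promotes elastic fibre assembly. After FBN2 it had the largest difference of the members. Its level was 235 and 239 CPM in D0 medium, 121 and 105 CPM in D4, 89.8 and 97.4 CPM in D7, and 109 and 73.9 CPM in D10. All later libraries lay well below the D0 pair, which differed by less than 5 CPM. The log2 fold change was -1.07 (SE 0.25), -1.34 (SE 0.25) and -1.37 (SE 0.25) at D4, D7 and D10, and within experiments -0.95 and -1.19 with D4 medium, -1.38 and -1.30 with D7 medium and -1.10 and -1.69 with D10 medium. MFAP4 fell at D7 and D10 in the blocked fit (edgeR adjusted p 0.0167 and 0.00448, and 0.0625 at D4) and with DESeq2 (adjusted p 0.0016 and 0.00034, and 0.0686 at D4). Without the block, edgeR gave 0.757, 0.307 and 0.0779 on the 3 days. Without D10 of experiment 2 the blocked D10 value of MFAP4 was -1.13 (edgeR adjusted p 0.00158). The blocked calls held in 4 of 8 fits at D7 and 7 of 8 at D10 with 1 library left out. The D7 call was lost without either D0 or either D7 library and the D10 call without D0 of experiment 2, with edgeR adjusted p-values from 0.0525 to 0.230 at D7 and of 0.0708 at D10. Opposite-strand exons of MAPK7 cover 4.79% of the exon bases of MFAP4, and whether strand was used in counting is not given in the sources used here.

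MFAP5 (ENSG00000197614.10, chr12:8637346-8662888, minus strand) encodes a small glycoprotein of microfibrils, also called MAGP-2. It had 1 and 1 counts in D0 medium, 4 and 1 in D4, 2 and 3 in D7, and 0 in both D10 libraries. With the limit at 3 counts, no difference of MFAP5 was detectable. Its relative MFAP2, the other MAGP, named here after its values were seen, had 10 to 67 counts per library and was not called on any day (edgeR adjusted p 0.998 at D10).

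Per length the order of the members changed between D0 and the later media. In D0 medium the means were 110.1 CPM per kb for MFAP4, 109.9 for EFEMP1, 104 for EFEMP2, 86.9 for FBN2, 48.8 for FBLN5, 39.2 for FBN1, 34.0 for FBLN1 and 2.10 for FBLN2. The first 4 overlapped their neighbours in this order, and from FBN2 downwards no library of one member reached the next. In D10 medium the order was EFEMP2 (89.1 ± 54.2, SD, n = 2), EFEMP1 (71.8 ± 11.6), MFAP4 (42.6 ± 11.6), FBLN5 (30.8 ± 5.54), FBN2 (27.7 ± 7.97), FBN1 (27.6 ± 9.75), FBLN1 (18.6 ± 7.17) and FBLN2 (1.09 ± 0.589), all in CPM per kb. FBN2 thus moved from above FBLN5 to among FBLN5, FBN1 and FBLN1, all 3 of which its libraries overlapped.

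The difference of FBN2 was set against each other member within the same library. Over the mean of D4, D7 and D10 against D0, the log2 ratio of FBN2 to MFAP4 was lower by 0.44 and 0.25 in experiments 1 and 2. To EFEMP1 it was lower by 0.82 and 0.80, to FBLN5 by 0.94 and 1.14, to FBN1 by 1.05 and 1.02, to FBLN1 by 1.09 and 1.17, and to EFEMP2 by 1.54 and 1.61. To FBLN2 it was lower by 0.92 and 1.10. FBN2 was lower relative to all 7 in both experiments, least so relative to MFAP4. Only the ratio to FBN1 was tested, as given above.

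The pattern of FBN2 over the 8 libraries, after the mean of each experiment was subtracted, was compared with that of the other 13797 tested genes as a description. The 5 most alike were FOXO3 (Pearson r 0.992), SHOC2 (0.987), S1PR3 (0.983), NBPF3 (0.983) and PLXNC1 (0.981). Of the members FBLN5 was the closest with r = 0.963, in position 20 of all genes, then MFAP4 with 0.932 (position 75), EFEMP1 with 0.891 (172) and FBN1 with 0.875 (214). FBLN1 followed with 0.600, FBLN2 with 0.528 and EFEMP2 with 0.186. All these values share the same 2 D0 libraries and the same library sizes. PLXNC1, a semaphorin receptor, fell on each day with the block by 2.13, 2.10 and 1.99 on the log2 scale (edgeR adjusted p 0.0136, 0.00618 and 0.00187), and FOXO3, a transcription factor, was at -0.51, -0.47 and -0.50 and not called.

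The wider lists around the fibres, chosen with earlier results of these data known, did not show the members' low median. Of 23 fibrillin-like and microfibril-associated genes outside the members, 15 were tested, with medians of -0.27, 0.06 and -0.20 at D4, D7 and D10. edgeR called 0 of them without the block, where 0.29% of all genes were called at D10, and 1 lower with it, DCN at D10, where 2.45% were called lower. Decorin, its product, is a small collagen-binding proteoglycan, and DCN went from 4340 and 3593 CPM in D0 medium to 2138 and 572 CPM in D10 (log2 fold change -1.55, edgeR adjusted p 0.484 without and 0.0362 with the block). Within experiments the log2 change of DCN was -1.02 and -2.65, and without D10 of experiment 2 the blocked value was -1.09 (edgeR adjusted p 0.00582). DCN is also 1 of the fibroblast markers, whose sum was lowest in the same D10 library. The largest positive value of the list, 1.56 for ADAMTS6, a protease of microfibrils, was not called (edgeR adjusted p 0.958), and without D10 of experiment 2 it was -1.38. With that library left out 16 genes of the list were tested, their D10 median was -0.13, and the fit with the block also called LTBP1 higher, by 0.73 (edgeR adjusted p 0.0411), named here after its values were seen.

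Among elastases and their inhibitors, 15 of 21 were tested, with medians of -0.0024, 0.16 and 0.29. At D10, 1 rose by edgeR without the block and 3 with it, while 0.196% and 2.54% of all genes rose. The first was CTSS, the elastolytic cathepsin S, at 0.335 and 0.655 CPM in D0 medium and 8.55 and 9.70 CPM in D10 (log2 fold change 4.16, edgeR adjusted p 0.0379 without and 0.00146 with the block). With the block CTSK, the elastolytic and collagenolytic cathepsin K, rose as well, from 27.6 and 19.4 CPM to 51.7 and 59.6 CPM (log2 fold change 1.25, edgeR adjusted p 0.00661). MME, neprilysin, rose with the block from 8.71 and 18.9 CPM to 26.8 and 120.0 CPM (edgeR adjusted p 0.0167), by 1.60 and 2.65 on the log2 scale within experiments 1 and 2. Without D10 of experiment 2, edgeR without the block called none of the 3 (adjusted p 0.113 for CTSS, 0.384 for CTSK and 0.9995 for MME), and the fit with the block called all 3 (adjusted p 0.000148, 0.00515 and 0.0110), and the median of the list was 0.49. The lowest value of the list, -1.13 for the inhibitor TIMP4, was not called.

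Of 9 genes for integrins that bind fibrillins and fibulins and for fibronectin, 8 were tested, with medians of 0.01, 0.33 and 0.16, and 0 were called on any day with or without the block, a count near the share of all genes. At D10 their values ran from -0.63 for ITGB8 to 0.79 for ITGA8. Their D10 median was 0.46 without D10 of experiment 2, and the fit with the block then called ITGA8 and ITGB5 higher (edgeR adjusted p 0.0247 and 0.0433), as it did 531 of 14168 genes, both named after their values were seen.

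**Figure D4:**
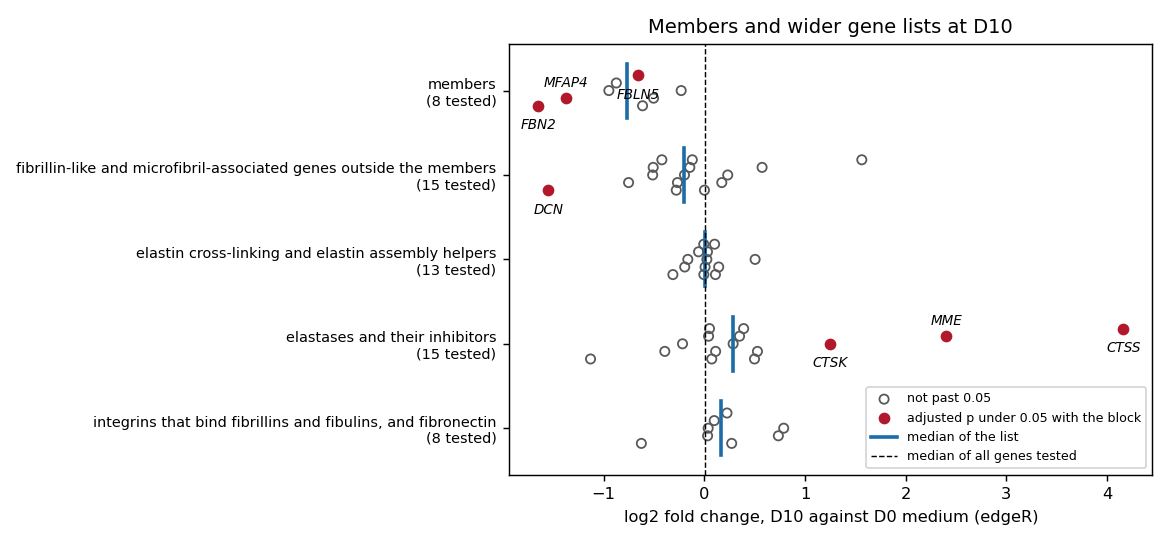
Log2 fold change at D10 against D0 medium, edgeR without a block (horizontal axis), of each tested gene in the members and in 4 wider lists. Filled points passed an adjusted p of 0.05 in the fit with the replicate block, blue bars are list medians and the dashed line is the median of all genes tested. The members' median was -0.77, the microfibril-associated list's -0.20 and the elastase list's 0.29.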

How the data were processed

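Poly(A)+ RNA of 8 libraries was sequenced from stranded libraries. The authors deposited raw read counts per gene, and the submitters' processing notes name STAR 2.5, GRCh38 and DESeq2. The counter and its strand setting are not given in the sources used here. The table's 8 columns of normalized values were not used. The header DO was read as D0. Of 27696 identifiers, 27588 (99.6%) were in GENCODE 29, from which positions and merged exon lengths came. CPM is edgeR's, with TMM scaling.

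The main test was edgeR 4.0.16's quasi-likelihood test in R 4.3.3 (glmQLFTest after filterByExpr and TMM) with group as the only term in 1 fit of the 8 libraries, and Benjamini-Hochberg adjustment ran over 13798 genes. DESeq2 1.42.0, a replicate block, other scalings and filters, and leaving out each library were alternatives. The methods were tested on simulated data. Log2 CPM used a prior count of 2. The methods describe 2 independent experiments without tying libraries to them. The replicate numbers of the labels were taken as the experiments, and same-numbered libraries deviated together (r from 0.418 to 0.722 over genes, 6 pairs of groups). The block lowered the common dispersion from 0.0792 to 0.0242.

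Members, lists and the comparisons over all later media were chosen with earlier results of these data known. Named list genes are those called with or without the block and the highest and lowest value at D10, and the 5 genes most like FBN2 were taken by correlation. Promoter windows are from RefSeq (6 members matched). Figures used Python 3.11.15.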

Additional observations from a re-analysis of the deposited data

Results flagged for a closer look

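EFEMP2 was higher than its own D0 library at D4 in both experiments, by 0.0959 and 0.190 on the log2 scale, and lower at D10 in both experiments, at -0.0144 and -0.662. It is given here because both experiments lay on opposite sides of 0 on the 2 days. The opposite directions were not tested as such. In edgeR's fit the D10 to D4 difference of EFEMP2 was -0.36 (adjusted p 0.974, and 0.391 with the replicate block).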

How the results depend on the processing

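The number of members called depended on the model. It was 0 at D4, D7 and D10 and over the mean of the later media without a block, 1, 3, 3 and 4 with the replicate block, 1, 2, 2 and 3 with DESeq2, and 1, 2, 2 and 2 without a filter. With raw library totals 1 member, FBN2, was called over the mean. Leaving out 1 library without the block gave 0 to 2 members at D10 and over the mean, the 2 being FBN2 and MFAP4 without D10 of experiment 1. With the block, leaving out 1 library was added after seeing the data and gave 0 to 5 members at D4, 0 to 4 at D7, 0 to 7 at D10, 0 to 6 over the mean and 0 to 3 from D4 to D10. The high values came without D10 of experiment 1 (and at D7 also without D10 of experiment 2), and the value was 0 without D0 of experiment 2. Without D10 of experiment 1, the D10 group was only the D10 library of experiment 2, which stood apart in COL1A1 and had the lowest fibroblast sum. The leave-out counts are given without the share of all genes, except at D4, D7 and D10 without D10 of experiment 2. The same holds for the counts without a filter, with raw totals and with DESeq2 over the mean. Such counts alone cannot show whether members were called more often than other genes. The values of the wider lists without D10 of experiment 2 were also added after seeing the data.

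For single members, 477 of the alternative values kept direction and side of the threshold, 62 kept direction and passed it, and 13 changed sign. The main fit called no member at D4, D7 or D10, so keeping the side of the threshold means staying uncalled. No call could be lost in this count. Without D0 of experiment 2 the log2 fold change of FBLN2 was 0.28 at D4 and 0.08 at D7, and that of EFEMP2 -0.17 and -0.27. FBLN2 was 0.11 at D7 without D7 of experiment 1, and 0.14 at D4 with the block and without D4 of experiment 2. EFEMP2 was -0.19 at D4 without D4 of experiment 1, -0.03 at D7 without D7 of experiment 1, and -0.31 with the block without D7 of experiment 2. At D10 it was 0.15 without D0 of experiment 1, 0.29 without D10 of experiment 2 and 0.090 without the latter with the block. FBLN1 was 0.046 at D7 with the block and without D7 of experiment 1. Over the fits without the block, FBLN2 ran from -0.70 to 0.28 at D4 and from -1.56 to 0.11 at D7, and EFEMP2 from -0.19 to 0.52 at D4, from -0.27 to 0.41 at D7 and from -1.02 to 0.29 at D10. The cause was not tested. The FBN2 to FBN1 ratio kept its direction in every alternative run, and the replicate block left its differences at -1.13 and -1.03. With 2 libraries per group the exact tests cannot pass 0.05, and ELN and MFAP5 lie at the limit of depth.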
